A study of Homo sapiens with 9 samples.

Results

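The mRNAs of 10 proteins that package RNA into transport granules were followed in RNA pulled down with the guidance receptors DCC and Nrp1: FMR1, FXR1, FXR2, STAU1, STAU2, IGF2BP1, IGF2BP3, ELAVL2, ELAVL4 and PURA. They were taken by gene symbol, and each was found among the 42785 genes listed for every library. The study asked which mRNAs associate with either receptor in SH-SY5Y cells, a human neuroblastoma line of adrenergic character, and the 9 libraries fall into 3 groups of 3 replicates. DCC-IP is RNA isolated from beads carrying a mouse antibody against DCC, a receptor of Netrin-1. Nrp1-IP is RNA isolated from beads carrying a rabbit antibody against Neuropilin-1, a receptor of Sema3A. Input is RNA of the lysate itself. All 3 groups share the same line, grown in serum-supplemented medium with no treatment named. Per the study's methods, the lysis buffer held cycloheximide, which holds ribosomes on their mRNAs, and unlysed cells and nuclei were spun out, so that the libraries describe cytoplasmic RNA of 1 cell line. The study reports, from a gel, that RNA came down with both receptors and not with control IgG. No library made with a control antibody was analysed here, and a difference between receptors cannot be told apart from a difference between their antibodies. A level in a pulldown is a share of the RNA recovered on the beads, and not an amount per cell. In bulk material such as the lysate, fewer cells that contain an mRNA and less of it per cell cannot be told apart.

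Transport granules are large assemblies of mRNA, ribosomes and RNA-binding proteins that move along microtubules into neurites and keep their mRNAs from being translated on the way. FMRP, encoded by FMR1 and lost in fragile X syndrome, represses translation, and FXR1 and FXR2 encode its close relatives. The Staufen proteins (STAU1, STAU2) bind double-stranded stems in mRNAs, the IGF2BP proteins (also called IMPs or ZBPs) bind among others the beta-actin mRNA, the neuronal Hu proteins (ELAVL2, ELAVL4) bind AU-rich elements, and PURA encodes a single-stranded nucleic acid binding protein found on dendritic granules with kinesin. What was measured here is the mRNA of each protein, and not the protein.

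Of the 10 mRNAs, FXR1 and STAU1 were abundant in every library, ELAVL4, FMR1 and STAU2 were detected at low counts in some libraries of each group, and the other 5 were at or near the detection limit in most libraries. The floor used throughout is 3 counts, which corresponds to 0.271 to 0.339 CPM (a count divided by the gene counts of its library and scaled to 1e6), since the gene counts numbered 8838296 to 11055895 per library. FXR1 and STAU1 together held 86.1% to 95.2% of the counts of the 10 genes in each library. They were also the only 2 of the 10 above the floor in all 9 libraries, whereas 3185 of the 42785 listed genes (7.44%) were. IGF2BP1 had no count in any library, as had 25408 of the listed genes (59.4%). Levels are given as CPM on library sizes scaled by the trimmed mean of M-values (TMM). These levels are not corrected for transcript length, so that they compare libraries and groups but not genes.

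**Figure D1:**
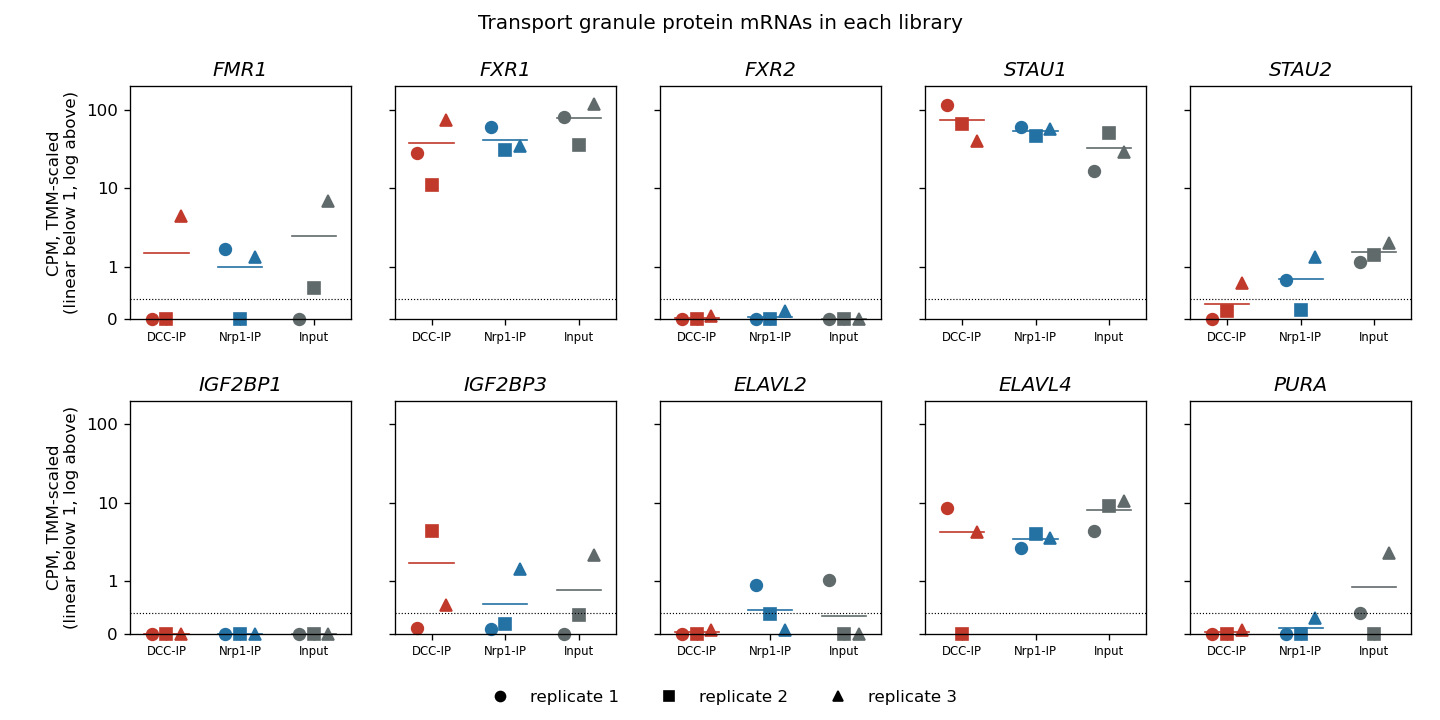
Levels of the 10 mRNAs in each library, as TMM-scaled CPM (vertical axis, linear below 1 and logarithmic above), for DCC-IP (red), Nrp1-IP (blue) and Input (grey). Circles, squares and triangles are replicates 1, 2 and 3, horizontal lines are group means, and the dotted line is the highest floor of a library, 0.387 CPM. FXR1 and STAU1 sit above 10 CPM in every library, and IGF2BP1 is at 0 in every library.

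Detection of the rarer mRNAs was highest in the third replicate of each group. In replicates 1, 2 and 3, the number of the 10 genes above the floor was 5, 5 and 7 in Input, 6, 4 and 7 in Nrp1-IP and 3, 3 and 6 in DCC-IP. The third replicates also had the most genes with at least 1 count, 11937 in Input, 12240 in Nrp1-IP and 11259 in DCC-IP, against 6652 to 11613 in the other libraries. Above the floor used for the 10 genes this did not hold in Input, where replicate 2 had 8980 genes and replicate 3 had 8856. In Nrp1-IP and DCC-IP the third replicates stayed the highest, with 9720 and 9177 genes. The 3 libraries numbered 3 held 32.5% of all gene counts, but 85.7% of the FMR1 counts, 88.5% of the PURA counts (23 of 26), 57.1% of those of STAU2 and 52.0% of those of FXR1. For STAU1 the share was 30.6%, near that of all genes. The part of library complexity in the values of the rarer mRNAs was not tested.

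**Figure D2:**
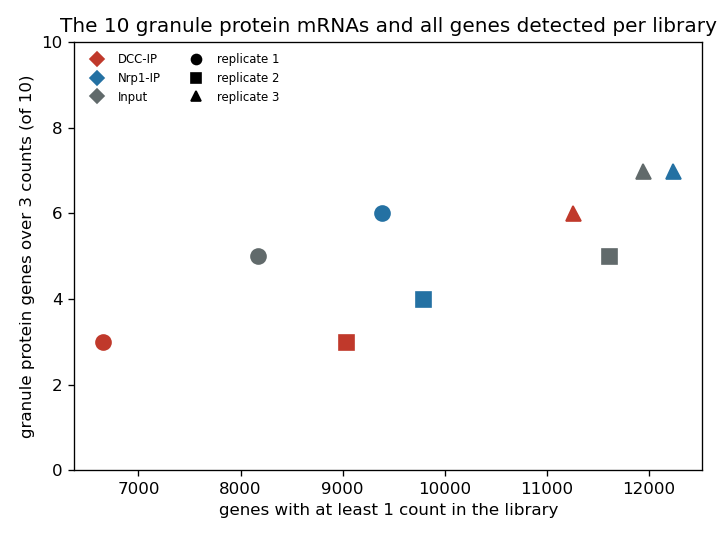
Number of the 10 genes with more than 3 counts (vertical axis) against the number of genes with at least 1 count (horizontal axis) in each of the 9 libraries, coloured by group and shaped by replicate. The 3 libraries numbered 3 (triangles) have the highest number of the 10 genes within their group, 6 or 7.

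The libraries differed in ways that bear on every level. MAP1B, a microtubule-associated protein mRNA, took 40.3% to 52.1% of the gene counts in DCC-IP and 1.58% to 2.44% in Nrp1-IP and Input, so levels on library size were also computed without it. The biological coefficient of variation was 0.761 to 1.02 depending on the comparison. The adrenergic identity of the line was checked in Input with 9 markers, of which 8 were above the floor in at least 1 Input library and 4 in all 3. Their summed level was 220 to 374 CPM in Input, 1114 to 1457 CPM in Nrp1-IP and 1719 to 3214 CPM in DCC-IP, and its part in the results was not tested. ISL1 made up most of that sum, with 17501 to 35114 counts in DCC-IP and 1833 to 3121 in Input, while CHGA went the other way, with 0, 0 and 8 counts in DCC-IP and 8, 44 and 113 in Input. TH, the rate-limiting enzyme of catecholamine synthesis and a defining marker, was at 0 in all 9 libraries. The glial (GFAP, AQP4) and leukocyte (PTPRC, CD74) markers were at 0 as well. The 7 mesenchymal or Schwann-like markers summed to 3.00 to 96.8 CPM in Input, where VIM had 1, 912 and 75 counts, to 2.29 to 5.85 CPM in Nrp1-IP and to 4.00 to 11.4 CPM in DCC-IP. Of the epithelial markers (EPCAM, KRT8), EPCAM had 12 counts in Nrp1-IP replicate 2, and KRT8 was at or under the floor throughout.

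No difference of any of the 10 mRNAs between the groups passed the test against the spread between replicates. The test was edgeR's quasi-likelihood test, run on the 6 libraries of each pair of groups, with a Benjamini-Hochberg adjusted p under 0.05 over all genes tested as the threshold. Between the receptors (Nrp1-IP over DCC-IP), 4 of the 10 genes passed the filter on low counts and 0 were called, against a background of 2.56% of 6439 genes called higher and 1.09% called lower. For DCC-IP over Input, 4 passed and 0 were called, where 1.46% of 6223 genes were called higher and 3.52% lower. For Nrp1-IP over Input, 5 passed and 0 were called, where 1.94% of 6501 genes were called higher and 3.03% lower. On library size alone the calls split otherwise, with 209 higher and 45 lower between the receptors against 165 and 70 with TMM, 141 and 167 for DCC-IP over Input against 91 and 219, and 351 and 167 for Nrp1-IP over Input against 126 and 197. With the replicate number as a block, DCC-IP over Input had 238 higher and 477 lower, and none of the 10 genes among them. Whether the numbers pair these libraries is not settled, and the main fits left them out. With so few of the 10 genes tested, a count of 0 is not far from what those percentages give. In these main fits none of the 10 had an unadjusted p under 0.05 in any of the 3 comparisons, and none was called by DESeq2 or by edgeR's exact test either. Some alternatives gave lower unadjusted p in edgeR's quasi-likelihood test. FXR1 was at 0.0408 for Nrp1-IP over Input without the filter and at 0.0441 for DCC-IP over Input with the block. The median log2 fold change of the tested genes among the 10 was -0.47 between the receptors, -0.87 for DCC-IP over Input and -0.93 for Nrp1-IP over Input, beside -0.27, 0.16 and 0.06 over all genes tested. The comparisons with Input share the Input libraries, so their values are given side by side only.

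The groups did not overlap for 0 of the 4 genes tested between the receptors, 1 of the 4 for DCC-IP over Input (STAU2) and 1 of the 5 for Nrp1-IP over Input (ELAVL4). Over all genes tested, groups did not overlap for 26.5%, 33.3% and 31.5% of genes. When the filter was dropped, 9 of the 10 genes could be fitted, and the lowest adjusted p among them was 0.329 (edgeR, FXR1, Nrp1-IP over Input).

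**Figure D3:**
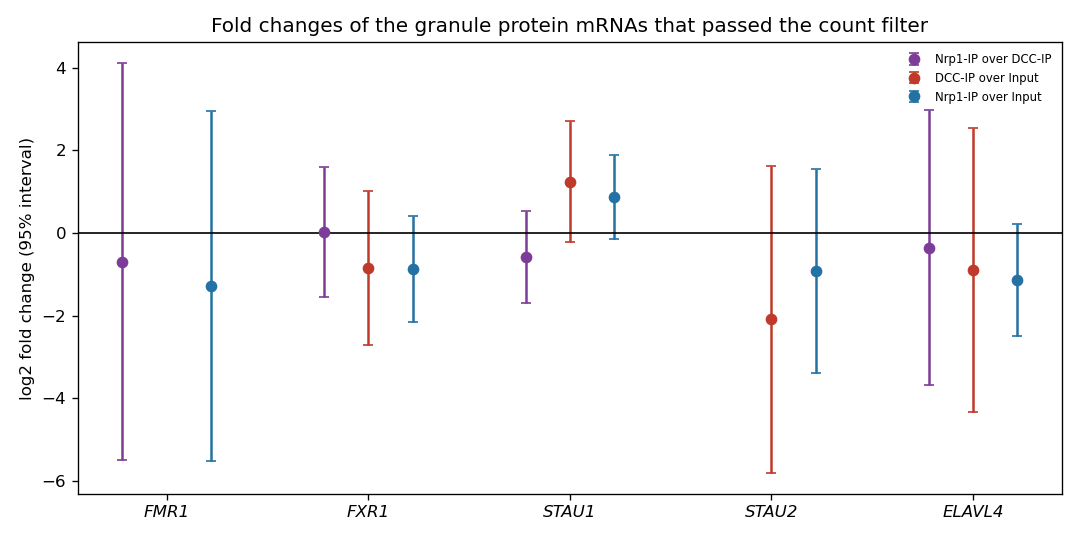
Log2 fold changes (vertical axis) of the 5 mRNAs that passed the count filter in at least 1 comparison, with 95% intervals from edgeR's quasi-likelihood fit, for Nrp1-IP over DCC-IP (purple), DCC-IP over Input (red) and Nrp1-IP over Input (blue). Every interval includes 0, and those of FMR1 and STAU2 span several log2 units.

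Of the FMRP family, FXR1 was the abundant mRNA, FMR1 was rare and FXR2 was at or under the floor. FXR1 had 627, 300 and 946 counts in Input replicates 1, 2 and 3, 642, 334 and 457 in Nrp1-IP and 247, 139 and 1076 in DCC-IP. These are 78.5 ± 41.6 CPM (SD, n = 3) in Input, 41.7 ± 16.0 in Nrp1-IP and 37.8 ± 32.8 in DCC-IP. The highest DCC-IP library (replicate 3, 74.4 CPM) stood above 4 of the 6 libraries of the other groups, the lowest (replicate 2, 11.1 CPM) stood below them all, and all 3 groups overlapped.

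The level of FXR1 was near equal in both pulldowns by group means, with a log2 fold change of 0.02 (SE 0.70, 95% interval -1.54 to 1.59, adjusted p = 0.993 in edgeR) for Nrp1-IP over DCC-IP. The interval admits a change of over 2-fold either way, and the sign turned when DCC-IP replicate 1 (-0.021), DCC-IP replicate 2 (-0.30) or Nrp1-IP replicate 1 (-0.21) was left out. Against Input, FXR1 was at -0.85 (SE 0.82, -2.72 to 1.02, adjusted p = 0.614 in edgeR) in DCC-IP and at -0.88 (SE 0.56, -2.17 to 0.41, adjusted p = 0.414) in Nrp1-IP. The order Input, Nrp1-IP, DCC-IP held on TMM-scaled CPM and on library size. With MAP1B taken out of the library sizes, and no TMM scaling, it became DCC-IP (81.5 CPM), Input (66.6) and Nrp1-IP (48.1). No neighbours in either order differed beyond their spread.

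FMR1 was found in 5 of the 9 libraries, with 0, 5 and 55 counts in Input, 18, 0 and 18 in Nrp1-IP and 0, 0 and 65 in DCC-IP. Its level was 2.50 ± 3.83 CPM (SD, n = 3) in Input, 1.01 ± 0.891 in Nrp1-IP and 1.50 ± 2.59 in DCC-IP. The third replicate was high in DCC-IP and in Input, so that the spread within each of these groups exceeded its mean. FMR1 passed the filter in both comparisons with Nrp1-IP and gave -0.69 (SE 2.14, -5.50 to 4.12, adjusted p = 0.935 in edgeR) over DCC-IP and -1.29 (SE 1.83, -5.52 to 2.94, adjusted p = 0.749) over Input. A single library set either sign: without DCC-IP replicate 3 the first value was 6.58, and without Input replicate 3 the second was 1.66.

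Within the family, FMR1 made up 0%, 1.64% and 5.49% of the summed FMR1, FXR1 and FXR2 counts in Input, 2.73%, 0% and 3.77% in Nrp1-IP and 0%, 0% and 5.69% in DCC-IP. Such a share is taken within 1 library and is not moved by any scaling. The third replicates of the 3 groups had Wilson 95% intervals of 4.49% to 7.19% (DCC-IP), 2.40% to 5.89% (Nrp1-IP) and 4.25% to 7.08% (Input), which overlap one another. At the floor of 3 counts, the counts of 0 allowed FMR1 shares of up to 1.21% and 2.16% in DCC-IP replicates 1 and 2, 0.898% in Nrp1-IP replicate 2 and 0.478% in Input replicate 1. The Wilson upper bounds were somewhat higher, such as 1.53% and 2.69% in DCC-IP replicates 1 and 2. FXR2 had 1 count in DCC-IP replicate 3, 2 in Nrp1-IP replicate 3 and none elsewhere, at or under the floor in every library. The intervals and floors cover counting error only, and the reads come from amplified cDNA.

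Of the Staufen pair, STAU1, which encodes the more widely expressed protein, was abundant in every library, and STAU2, the form known for its neuronal enrichment, was rare. STAU1 had 129, 431 and 233 counts in Input, 648, 500 and 754 in Nrp1-IP and 1037, 818 and 584 in DCC-IP. Its level was 32.4 ± 17.6 CPM (SD, n = 3) in Input, 54.4 ± 7.51 in Nrp1-IP and 74.4 ± 39.2 in DCC-IP. The Nrp1-IP libraries lay close together, and Input replicate 2, at 51.4 CPM, stood above DCC-IP replicate 3 (40.4 CPM) and Nrp1-IP replicate 2 (46.0 CPM), so that both pulldowns overlapped Input.

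STAU1 was 2.36-fold the Input level in DCC-IP (log2 1.24, SE 0.64, -0.22 to 2.70, adjusted p = 0.306 in edgeR) and 1.83-fold in Nrp1-IP (log2 0.87, SE 0.44, -0.16 to 1.90, adjusted p = 0.307). Neither passed the threshold. Leaving out single libraries gave log2 values of 0.90 (without Input replicate 1) to 2.0 (without DCC-IP replicate 3) for DCC-IP over Input, and of 0.41 (without Input replicate 1) to 1.22 (without Input replicate 2) for Nrp1-IP over Input. The order DCC-IP, Nrp1-IP, Input was the same on all 3 scales, with 74.8, 61.8 and 27.1 CPM on library size alone and 145, 63.1 and 27.7 CPM with MAP1B left out of it. On library size alone the pulldown libraries all stood above the Input libraries. With TMM, where STAU1 overlapped, groups did not overlap, either way, for 33.3% of genes tested in DCC-IP over Input and 31.5% in Nrp1-IP over Input. On library size alone that share was not counted, so the separation of STAU1 there is a description only. Median log2 fold changes of all genes also stood higher on that scale than with TMM, at 0.48 against 0.16 for DCC-IP over Input, 0.44 against 0.06 for Nrp1-IP over Input and -0.10 against -0.27 between the receptors. Between the receptors STAU1 was at -0.58 (SE 0.50, -1.71 to 0.54, adjusted p = 0.651), and this turned to 0.069 without DCC-IP replicate 1. The lowest adjusted p of any of the 10 genes in any alternative was 0.0968, for STAU1 in DCC-IP over Input among genes with at least 10 counts in every library.

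STAU2 had 9, 12 and 16 counts in Input, 8, 2 and 18 in Nrp1-IP and 0, 2 and 10 in DCC-IP. These are 1.53 ± 0.434, 0.761 ± 0.583 and 0.284 ± 0.362 CPM (SD, n = 3). Every Input library stood above every DCC-IP library, whereas Nrp1-IP replicate 3 lay within the Input range. On library size alone DCC-IP and Input overlapped. The log2 fold change was -2.09 (SE 1.64, -5.81 to 1.63, adjusted p = 0.523 in edgeR) for DCC-IP over Input and -0.93 (SE 1.07, -3.39 to 1.54, adjusted p = 0.680) for Nrp1-IP over Input, and between the receptors STAU2 did not pass the filter. Leaving out single libraries gave -3.68 (without DCC-IP replicate 3) to -1.61 (without DCC-IP replicate 1) for DCC-IP over Input.

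The balance of the Staufen counts separated Input from both pulldowns. STAU2 made up 6.52%, 2.71% and 6.43% of the summed STAU1 and STAU2 counts in Input, 1.22%, 0.398% and 2.33% in Nrp1-IP and 0%, 0.244% and 1.68% in DCC-IP. The group means were 5.22 ± 2.17%, 1.32 ± 0.970% and 0.642 ± 0.910% (SD, n = 3), and all 3 Input libraries stood above all 6 pulldown libraries. The lowest Input share (replicate 2, Wilson 95% interval 1.56% to 4.67%) and the highest pulldown share (Nrp1-IP replicate 3, 1.48% to 3.66%) had overlapping intervals. At the floor of 3 counts, the count of 0 in DCC-IP replicate 1 allowed a share of up to 0.289% (Wilson upper bound 0.369%). The STAU2 counts of 2 in DCC-IP replicate 2 and in Nrp1-IP replicate 2 were under the floor as well. This separation is a description of these libraries with no test attached, it combines the higher STAU1 and lower STAU2 values given above, neither of which passed the threshold, and it rests on 77 STAU2 counts in all. How often other pairs of genes separate in this way was not computed. For levels of single genes (TMM-scaled, 3 libraries against 3, either way), groups did not overlap for 33.3% of those tested in DCC-IP over Input and 31.5% in Nrp1-IP over Input. That is another measure than a share that separates 3 Input from 6 pulldown libraries.

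**Figure D4:**
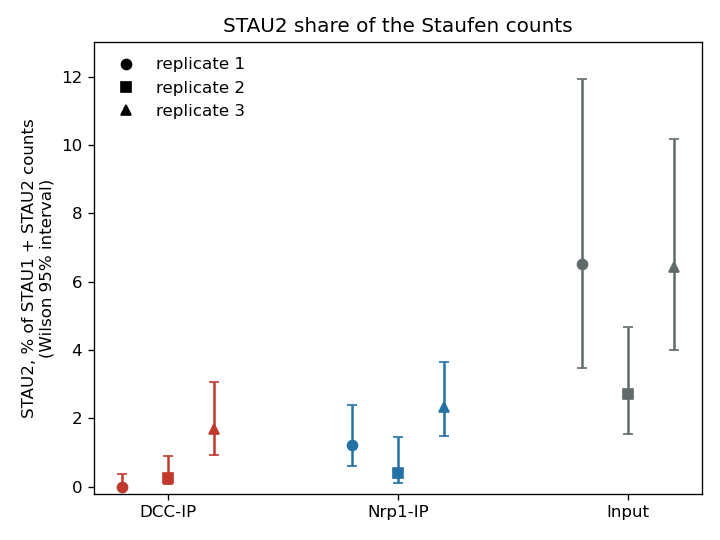
STAU2 as a percentage of the summed STAU1 and STAU2 counts (vertical axis) in each library, with Wilson 95% intervals, by group and replicate. The Input libraries lie at 2.71% to 6.52%, all above the DCC-IP (0% to 1.68%) and Nrp1-IP (0.398% to 2.33%) libraries.

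The IGF2BP mRNAs, which encode proteins of embryonic tissue and tumours, were at or near the floor in most libraries. IGF2BP1 and its relative IGF2BP2 were at 0 in all 9 libraries. The floor of 3 counts is 0.271 to 0.339 CPM per library on library size, and 0.207 to 0.387 CPM with TMM. It covers counting error only, and not losses in amplification. IGF2BP3 had 0, 3 and 17 counts in Input, 1, 2 and 19 in Nrp1-IP and 1, 55 and 8 in DCC-IP. DCC-IP replicate 2 alone held 55 of the 106 counts of this gene, and the means of 0.831 ± 1.14, 0.568 ± 0.745 and 1.69 ± 2.36 CPM (SD, n = 3) were each exceeded by their spread. IGF2BP3 did not pass the count filter in any comparison.

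Of the neuronal Hu family, ELAVL4 (HuD), which binds and stabilises neuronal mRNAs such as GAP43, was measurable and ELAVL2 (HuB) was rare. ELAVL4 had 34, 76 and 84 counts in Input, 28, 44 and 48 in Nrp1-IP and 76, 0 and 61 in DCC-IP. Its level was 8.00 ± 3.22 CPM (SD, n = 3) in Input, 3.42 ± 0.733 in Nrp1-IP and 4.27 ± 4.30 in DCC-IP. Every Nrp1-IP library (at most 4.05 CPM) lay below every Input library (at least 4.39 CPM), by a narrow gap that closed on library size alone. DCC-IP ran from 0 in replicate 2 to 8.59 CPM in replicate 1 and overlapped both other groups.

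The log2 fold change of ELAVL4 was -1.14 (SE 0.59, -2.50 to 0.22, adjusted p = 0.312 in edgeR) for Nrp1-IP over Input, which did not pass the threshold. For DCC-IP over Input it was -0.90 (SE 1.51, -4.33 to 2.54, adjusted p = 0.787), and 0.16 without DCC-IP replicate 2. Between the receptors it was -0.35 (SE 1.48, -3.68 to 2.97, adjusted p = 0.952), and the sign turned without DCC-IP replicate 1 (0.70) or DCC-IP replicate 3 (0.077).

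ELAVL2 had 8, 0 and 0 counts in Input, 10, 4 and 1 in Nrp1-IP and 0, 0 and 1 in DCC-IP. In DCC-IP it was under the floor in every library, and in Nrp1-IP it reached 0.459 ± 0.437 CPM (SD, n = 3). Its share of the summed ELAVL2 and ELAVL4 counts ranged from 2.04% to 26.3% in Nrp1-IP and from 0% to 19.0% in Input, and the 2 DCC-IP libraries with any such count had 0% (up to 3.95% at the floor of 3 counts) and 1.61%. Unlike FMR1 and PURA, ELAVL2 had only 8.33% of its counts in the libraries numbered 3.

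The 2 Hu relatives outside the 10 genes showed other levels. ELAVL1 (HuR, the form found in most tissues) had 31, 18 and 27 counts in Input, 2, 1 and 8 in Nrp1-IP and 0, 1 and 25 in DCC-IP, with a log2 fold change of -3.32 (SE 1.05, adjusted p = 0.115 in edgeR) for Nrp1-IP over Input. ELAVL3 (HuC, a neuronal form) had 235, 180 and 12 counts in Input, 180, 200 and 50 in Nrp1-IP and 10, 48 and 5 in DCC-IP. It was at 2.61 (SE 1.17, adjusted p = 0.293) for Nrp1-IP over DCC-IP and at -3.16 (SE 1.36, adjusted p = 0.220) for DCC-IP over Input. Neither relative passed the threshold.

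PURA had 3, 0 and 18 counts in Input, 0, 0 and 4 in Nrp1-IP and 0, 0 and 1 in DCC-IP, and it did not pass the count filter in any comparison. It was above the floor in only 2 libraries, both replicates 3. Its relative PURB, with which it forms complexes, had 0, 16 and 47 counts in Input, 0, 0 and 72 in Nrp1-IP and 1, 0 and 75 in DCC-IP. Both Pur mRNAs were thus highest in the third replicate of each group.

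The other mRNAs of the granule pathway were counted in 67 genes: 4 relatives of the above, 27 granule partners, 7 FMRP partners, 15 motors and adaptors, and 14 proteins of stress granules and P-bodies. Between the receptors 38 passed the filter and edgeR's quasi-likelihood test called 0, with 5 at an unadjusted p under 0.05; DESeq2 and edgeR's exact test each called 1 higher and 2 lower. For DCC-IP over Input 1 of 41 was called higher and 0 lower, with 6 at an unadjusted p under 0.05. For Nrp1-IP over Input 4 of 44 were called higher and 1 lower, with 12 at an unadjusted p under 0.05. Over all genes tested, 1118 of 6439, 1367 of 6223 and 1405 of 6501 were at an unadjusted p under 0.05 in these comparisons, and the shares called are those given above for each comparison. The median log2 fold changes of the tested genes were -0.47, 0.38 and 0.05, beside the -0.27, 0.16 and 0.06 of all genes. By sublist, the 5 calls for Nrp1-IP over Input fell on 1 of 19 granule partners, 1 of 4 FMRP partners, 1 of 8 motors and adaptors, 2 of 10 stress granule and P-body genes and 0 of 3 relatives. The list counts moved with the method. For DCC-IP over Input, 4 were called higher and 1 lower with the replicate block, 5 and 1 with DESeq2, 2 and 0 with the exact test, 5 higher among genes with at least 10 counts in every library, and 3 higher and 1 lower in a joint fit of all 9 libraries. For Nrp1-IP over Input, none of the 5 calls passed in the joint fit, with RLE size factors 2 were called higher, and DESeq2 and the exact test called 4 and 3 lower.

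**Figure D5:**
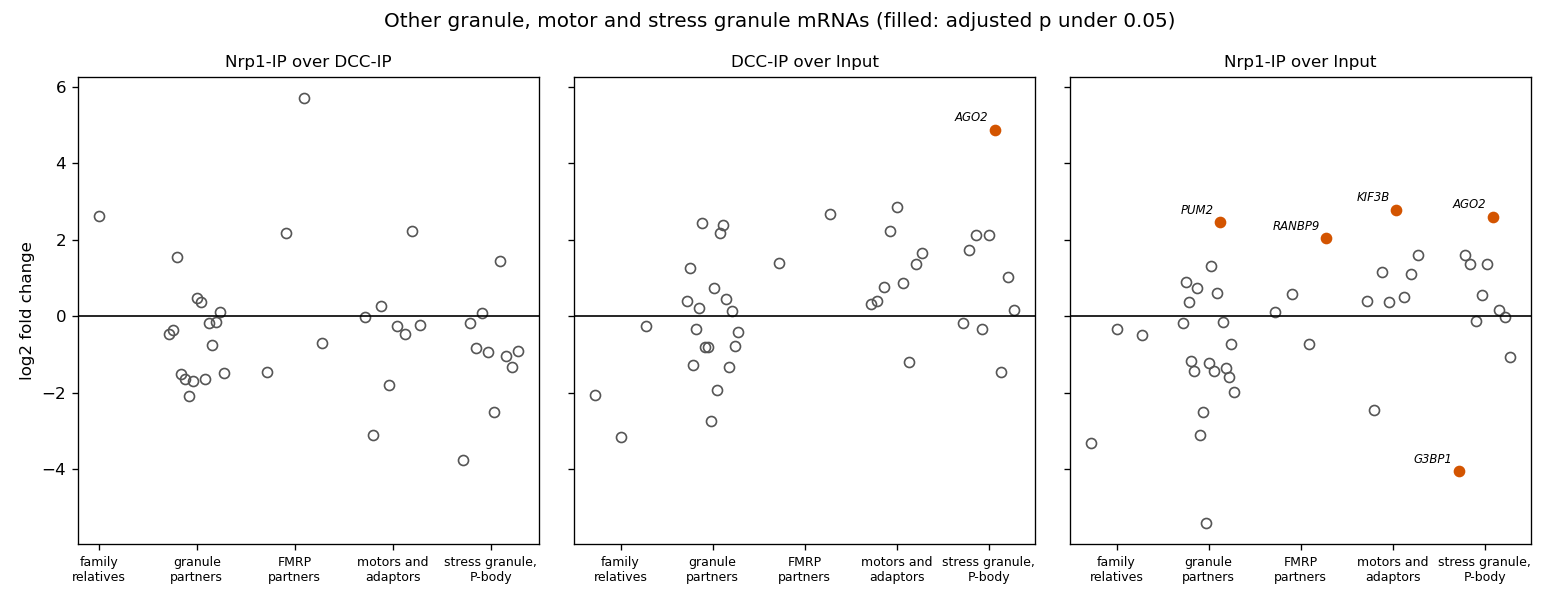
Log2 fold changes (vertical axis) of the tested genes among 67 other granule pathway mRNAs, by sublist (horizontal axis) and comparison (panels), with filled points for adjusted p under 0.05 in edgeR's quasi-likelihood test. No point is filled between the receptors, AGO2 alone is for DCC-IP over Input, and AGO2, RANBP9, KIF3B and PUM2 (higher) and G3BP1 (lower) are for Nrp1-IP over Input.

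AGO2, which encodes the Argonaute protein that carries microRNAs in P-bodies, rose in both pulldowns. It had 44, 73 and 45 counts in Input, 472, 463 and 352 in Nrp1-IP and 3396, 1954 and 750 in DCC-IP, with no overlap between any pair of groups. The log2 fold change was 4.87 (SE 0.76, adjusted p = 0.0114 in edgeR) for DCC-IP over Input and 2.60 (SE 0.44, adjusted p = 0.0218) for Nrp1-IP over Input, while -2.50 between the receptors did not pass (adjusted p = 0.0797). The DCC-IP call was lost without DCC-IP replicate 1 (adjusted p = 0.0766), DCC-IP replicate 2 (0.0975) or Input replicate 1 (0.0880).

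In Nrp1-IP, RANBP9, KIF3B and PUM2 rose over Input as well. In the joint fit of all 9 libraries these calls and that of AGO2 were lost, with adjusted p of 0.0952 (RANBP9), 0.310 (KIF3B), 0.149 (PUM2) and 0.101 (AGO2) in edgeR, with RLE size factors those of KIF3B (0.0554) and PUM2 (0.0632) were lost, and without the count filter that of KIF3B (0.0528). RANBP9, whose protein binds FMRP, had 351, 402 and 455 counts in Nrp1-IP and 49, 75 and 90 in Input (log2 2.04, SE 0.43, adjusted p = 0.0402 in edgeR). In DCC-IP it had 436, 546 and 880 counts and was just outside the threshold (log2 2.68, adjusted p = 0.0523). KIF3B, a subunit of the kinesin-2 motor, had 90, 126 and 171 counts in Nrp1-IP and 8, 24 and 10 in Input (log2 2.79, SE 0.60, adjusted p = 0.0430), and 8, 311 and 91 in DCC-IP, which overlapped Input. PUM2, the Pumilio repressor of translation, was the fourth by p and is named after its values were seen. It had 605, 356 and 622 counts in Nrp1-IP and 36, 137 and 49 in Input (log2 2.47, SE 0.55, adjusted p = 0.0453), and 499, 755 and 263 in DCC-IP (log2 2.39 over Input, adjusted p = 0.125).

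G3BP1, which encodes the protein that nucleates stress granules, fell in Nrp1-IP. It had 46, 131 and 223 counts in Nrp1-IP against 765, 713 and 2981 in Input, a log2 fold change of -4.06 (SE 0.82, adjusted p = 0.0350 in edgeR, and 0.0921 in the joint fit of all 9 libraries). DCC-IP, with 665, 192 and 4765 counts, overlapped both. All 5 calls for Nrp1-IP over Input were lost when any 1 of the Nrp1-IP libraries or Input replicate 1 was left out, with adjusted p between 0.0585 and 0.223. Without Input replicate 2, those of AGO2 (0.0529), RANBP9 (0.104) and KIF3B (0.0619) were lost, and without Input replicate 3 those of PUM2 (0.0990) and KIF3B (0.0970).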

How the data were processed

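RNA-seq of 9 libraries from SH-SY5Y cells was used. The authors deposited raw counts per gene symbol, made with HISAT2 2.1.0 and HTSeq 0.11.0 on hg19 per the submitters' processing notes, with no normalization. The annotation and strand setting are not given in the sources used here. Antisense genes of FMR1 and STAU2 had at most 1 count in any library. HTSeq's summary lines were left out (ambiguous reads 0.195% to 0.517%). Unmapped columns numbered 0. The cDNA was amplified by a PCR method for single cells, and its effect on rare mRNAs was not tested.

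Each pair of groups (6 libraries) was fitted with edgeR 4.0.16 in R 4.3.3, using its quasi-likelihood test with group as the only term, TMM scaling and the default filter on low counts (filterByExpr, minimum count 10). A gene was called at an adjusted p (Benjamini-Hochberg) below 0.05, whatever its fold. The SE is the log2 fold change divided by the square root of F, and the 95% interval uses the fit's degrees of freedom. Shares carry Wilson intervals (scipy 1.17.1). The procedure was tested on simulated data. At the spread estimated from these libraries it missed most of the large changes put in, so a gene that was not called may still differ. Replicates are independent biological ones per the study's methods.

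Libraries were taken as paired by number where every same-numbered pair's deviations correlated over 0.1 (7628 genes). This held for DCC-IP with Input (0.117, 0.187, 0.421). It did not hold for Nrp1-IP with DCC-IP (0.0989, 0.113, 0.361) or with Input (0.215, -0.00430, 0.365). The cut of 0.1 was missed narrowly by Nrp1-IP with DCC-IP, and a DCC-IP and Input pair with different numbers reached 0.1365. The rule thus does not settle which libraries are paired, and the main fits left the replicate number out.

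All 10 genes are named in every comparison. From the other lists the 3 called genes with the smallest p per direction and comparison are named, and MAP1B. The 10 genes and the lists were chosen with earlier results of these data known. RTRAF was found under its older symbol C14orf166. Alternatives covered DESeq2 1.42.0, edgeR's exact test, RLE and library-size scaling, MAP1B left out, no filter, a minimum of 10 counts per library, a joint fit of the 9 libraries, a replicate block, and leaving out libraries singly or, added after seeing the data, by number. Levels per transcript length and sequences were not used here.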

Additional observations from a re-analysis of the deposited data

How the results depend on the processing

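None of the 10 genes was called in any alternative. Of 221 alternative log2 fold changes over the 13 tested gene and comparison pairs, 206 kept their direction and 15 turned, 13 of them on leaving out libraries. Leaving out 1 library gave, for Nrp1-IP over DCC-IP, FMR1 from -1.14 to 6.58 (positive without DCC-IP replicate 3), FXR1 from -0.30 to 1.37 (negative without DCC-IP replicate 1, at -0.021, DCC-IP replicate 2 or Nrp1-IP replicate 1, at -0.21), STAU1 from -0.59 to 0.069 (positive without DCC-IP replicate 1) and ELAVL4 from -0.92 to 0.70 (positive without DCC-IP replicate 1 or, at 0.077, replicate 3). It gave ELAVL4 from -1.69 to 0.16 for DCC-IP over Input (positive without DCC-IP replicate 2), and FMR1 from -1.89 to 1.66 for Nrp1-IP over Input (positive without Input replicate 3). Without the replicate of the same number in both groups, FXR1 turned between the receptors for replicate 1 (-0.38) and replicate 2 (-0.19), ELAVL4 between the receptors for replicate 1 (0.86), and ELAVL4 in DCC-IP over Input for replicate 2 (0.14). The cause was not tested. The per-length family share was not run.

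With the replicate number as a block, FMR1 (1.10) and ELAVL4 (0.52) turned between the receptors, and 0 of the 10 genes were called. For DCC-IP over Input, where the rule for pairing was met, FXR1 was at -1.18 (adjusted p = 0.181 in edgeR, 0.181 to 0.933 over its alternatives). STAU1 was at 1.31 there (adjusted p = 0.227 in edgeR, 0.0968 to 0.694 over its alternatives). For the other 2 comparisons the rule was not met. Whether the numbers pair the libraries is not settled in any comparison. The block raised the genes called higher and lower from 165 and 70 to 266 and 103 between the receptors, and from 126 and 197 to 239 and 317 for Nrp1-IP over Input. Of the 67 pathway genes it called 3 lower between the receptors, and 4 higher and 3 lower for Nrp1-IP over Input.

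Counts over all genes moved widely. With the receptor comparison first, DCC-IP against Input second and Nrp1-IP against Input last, DESeq2 called 408, 508 and 377 higher and 297, 524 and 589 lower, and requiring 10 counts in every library gave 290, 468 and 276 higher and 169, 337 and 356 lower. The exact test gave 265, 228 and 301 higher, and 154 and 339 lower for the first and last. Without the filter 308, 233 and 238 were higher, and 176 and 644 lower for the first and last. With RLE factors, 191 were higher and 45 lower for the first, 44 higher for the second, and 85 higher and 265 lower for the last. With MAP1B left out, 232 were higher and 41 lower for the first, and 26 and 47 for the second. In one fit of 9 libraries, 285 and 495 were called for the second and 22 and 103 for the last. Leaving out 1 library gave 67 to 290 higher and 5 to 70 lower, 0 to 139 and 0 to 214, and 0 to 111 and 0 to 330. Leaving out replicate 1 or 2 of both groups left at most 6 calls in any comparison, and replicate 3 left 27 higher and 4 lower for the first and 57 higher for the last.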

Other observations

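The mRNAs that granule proteins are known to carry were counted as a list of 14, of which 7, 8 and 7 passed the filter between the receptors, for DCC-IP over Input and for Nrp1-IP over Input. MAP1B, an mRNA repressed by FMRP, took the largest part of DCC-IP, with 5462610, 5760797 and 4184163 counts there against 232433, 226607 and 164906 in Input and 236931, 230234 and 172714 in Nrp1-IP. Its log2 fold change was 4.22 (SE 0.27, adjusted p = 0.000658 in edgeR) for DCC-IP over Input, where it was the 1 gene of the list called higher, and the call was lost without DCC-IP replicate 1 (adjusted p = 0.0510). Between the receptors it was -4.75 (SE 0.37, adjusted p = 0.000925), the 1 gene called lower.

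ACTB, the beta-actin mRNA bound by the IGF2BP proteins, was the 1 gene of the list called lower in Nrp1-IP over Input. It had 23675, 25286 and 285358 counts in Input, 1022, 1274 and 4027 in Nrp1-IP and 7725, 3520 and 28167 in DCC-IP. The log2 fold change for Nrp1-IP over Input was -6.35 (SE 1.25, adjusted p = 0.0328 in edgeR), and the call was lost without Nrp1-IP replicate 1 (0.169), replicate 2 (0.190) or replicate 3 (0.103). ACTB has many processed pseudogenes, so that its counts are uncertain. DLG4, ARC and BDNF, which encode proteins of the synapse, were at 0 in all 9 libraries.

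The number of FXR1 counts per STAU1 count, looked at after the values were seen, was 4.86, 0.696 and 4.06 in Input, 0.991, 0.668 and 0.606 in Nrp1-IP and 0.238, 0.170 and 1.84 in DCC-IP. The lowest Input value lay within the range of both pulldowns, and DCC-IP replicate 3 stood apart from the other 2 libraries of its group.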
